A study of Mus musculus with 12 samples.

Results

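A set of 6 genes was followed through a thyroid hormone time course: Thra and Thrb, which encode the hormone receptors, Rxra and Rxrb, which encode their dimer partners, and Ncor1 and Tbl1xr1, which encode parts of a corepressor complex. The genes were chosen by symbol, and all 6 were found among the 12774 symbols of the deposited table. The cells were C17.2, a mouse neural progenitor line. C17.2a stably expressed a tagged receptor alpha and C17.2b a tagged receptor beta. Before the experiment both lines spent 24 h without serum, and they then received T3 (triiodothyronine, the active hormone, 1e-07 M) or nothing for 6, 12 or 24 h. Each combination of line, treatment and time had 1 library, 12 in all, so no level below has a replicate. Whether a line is a single clone and which promoter drives its receptor are not given in the sources used here.

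Thyroid hormone receptors sit on DNA mostly as heterodimers with a retinoid X receptor (RXR). Without hormone the dimer recruits the corepressor NCoR (Ncor1), which carries the histone deacetylase Hdac3, the exchange factors TBL1 (Tbl1x) and TBLR1 (Tbl1xr1), and Gps2, and the target gene is held low. Binding of T3 releases this complex and brings in coactivators. In brain the alpha receptor is the more widespread form, and Thra also encodes a splice form that does not bind T3.

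The binding site that receptors and RXRs share is a repeat of the hexamer AGGTCA. Upstream sequence from RefSeq (build GRCm38.p6) was matched for 5 of the 6 genes, all but Thra, with 9 start sites among them, and was searched over the 250 bases before each start on both strands. The hexamer occurs in 14% of 32851 such windows, and the full repeat (AGGTCA, any 4 bases, AGGTCA) in 0.0152% of them. Among the 9 windows, 1 of Thrb and 1 of Rxra hold the hexamer, and none holds the full repeat. These are shown beside windows of Rxrb and Tbl1xr1, whose levels were higher with T3 in every pair of libraries. All lie on the plus strand. Those of Thrb and Rxrb are cut to the part that no annotated exon covers, and those of Rxra and Tbl1xr1 are whole. They carry the hexamer in capitals, read as AGGTCA or, from the other strand, TGACCT. They are Thrb chr14:17660710-17660891, Rxra (an internal start) chr2:27709042-27709291, Rxrb chr17:34031683-34031811 and Tbl1xr1 chr3:22076402-22076651.
Thrb: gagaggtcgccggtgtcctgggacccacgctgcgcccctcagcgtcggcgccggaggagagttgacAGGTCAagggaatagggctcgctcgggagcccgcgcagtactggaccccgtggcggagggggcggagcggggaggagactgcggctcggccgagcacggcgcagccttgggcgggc
Rxra: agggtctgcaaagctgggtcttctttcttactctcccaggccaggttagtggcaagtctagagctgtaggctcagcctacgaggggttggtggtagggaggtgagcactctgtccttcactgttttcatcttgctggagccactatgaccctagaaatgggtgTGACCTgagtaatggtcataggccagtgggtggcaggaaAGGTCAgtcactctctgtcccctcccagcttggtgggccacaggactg
Rxrb: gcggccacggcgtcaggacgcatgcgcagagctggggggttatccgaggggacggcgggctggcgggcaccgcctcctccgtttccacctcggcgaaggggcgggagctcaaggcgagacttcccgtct
Tbl1xr1: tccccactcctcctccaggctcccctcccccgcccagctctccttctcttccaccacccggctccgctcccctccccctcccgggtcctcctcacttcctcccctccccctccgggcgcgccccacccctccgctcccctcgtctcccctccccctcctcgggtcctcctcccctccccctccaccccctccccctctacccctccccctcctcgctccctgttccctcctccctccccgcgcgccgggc
The printed Thrb stretch ends 68 bases before its start site, and those of the other genes end at theirs. The hexamer begins 184 bases before the start in Thrb and 87 and 48 bases before it in Rxra. The absence of these letters from the other windows says nothing about binding elsewhere.

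The unit was RPM, in which the tags of each library are scaled to the same sum. Implied depths ran from 7.14e+06 to 1.91e+07 tags per library, and 3 tags correspond to 0.157 to 0.42 RPM. Levels of different genes are not compared, because no length scaling could be applied. The C17.2a T3 24 h library stood apart in single genes. Some other nuclear receptor and corepressor genes had their lowest value there. Vdr, Nr1h4 and Hr did not, and Rxra had its highest value there, at 86.95 RPM. Rarg stood at 0.24 RPM against 9.42 to 15.1 elsewhere, Nr1h2 at 5.49 against 19.7 to 87.8, and Gps2 at 0.24 against 0.54 to 5. Its 875 symbols listed as N/A were the most of the 12, with 812 in the C17.2b T3 6 h library and 479 to 750 in the others. Of the 8 neural progenitor markers 7 were analysed. Their summed level was 2321 to 5778 RPM without T3 and 1351 to 3065 RPM with T3. The part of this difference in the results was not tested. Vimentin was at 1112 to 4941 RPM, and nestin, Sox2, Notch1 and Hes1 were also present in every library. Fabp7 was at 1.87 to 22.1 RPM and Msi1 at 0 to 4.35. Of the neuron markers Tubb3 was at 44.48 to 576.4 RPM and Snap25 at 0.28 to 1.57. Gja1 and S100b, on the astrocyte list, were at 121.7 to 221.2 and 36.14 to 59.28 RPM. Gfap and Slc1a3, on the same list, were at 0.6 to 3.92 and 0 to 0.41 RPM. Among oligodendrocyte markers Sox10 was at 134.9 to 758.7 RPM, but Olig2 was at 0.08 to 1.9 and Mbp at 0.54 to 2.88. The microglial markers P2ry12 and Cx3cr1 were at 0.89 to 6.65 and 0 to 0.42 RPM.

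Hr, a corepressor gene that is itself a direct T3 target, was 11- to 20.3-fold higher in RPM with T3 over the 6 pairs.

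**Figure D1:**
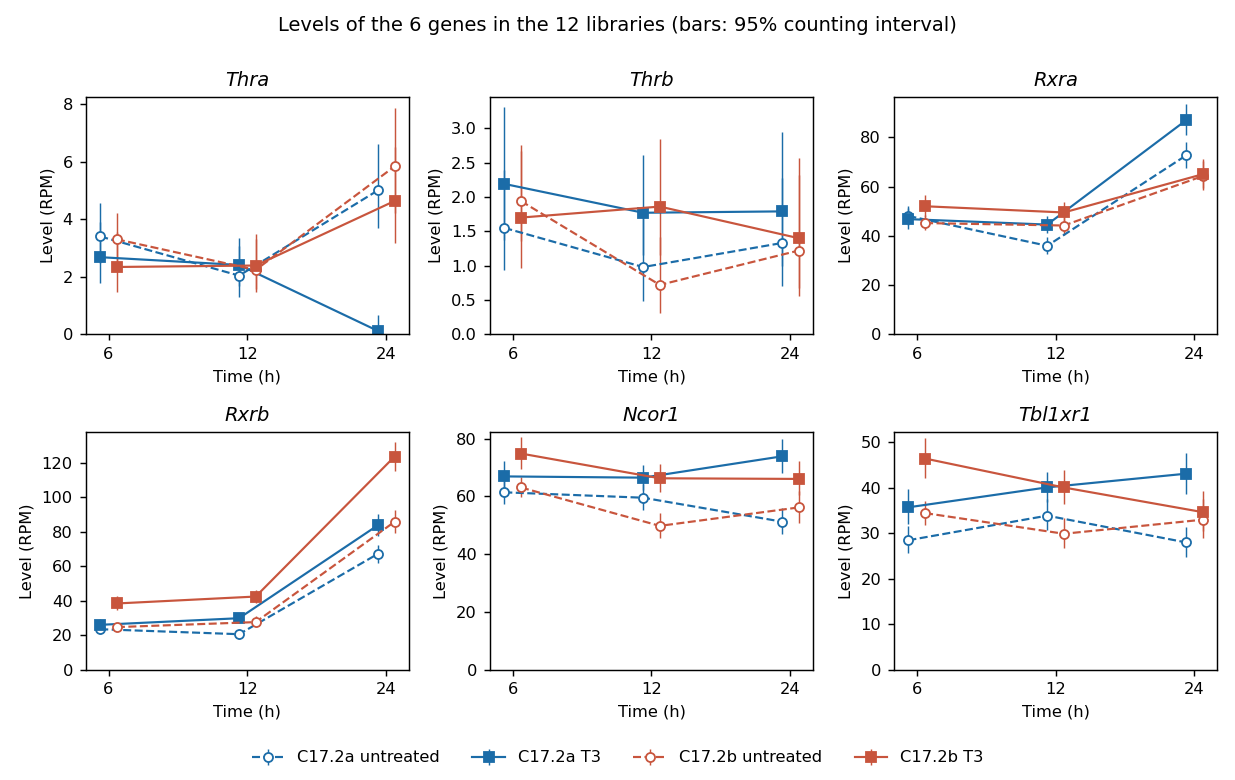
Level in RPM (y axis, from 0) of each of the 6 genes at 6, 12 and 24 h (x axis, evenly spaced), 1 point per library, with lines C17.2a in blue and C17.2b in red, untreated open and T3 filled; bars are exact 95% counting intervals. Rxrb reached 67.2 to 123.5 RPM at 24 h in all 4 conditions, and Thra had its lowest value, 0.12 RPM, in C17.2a with T3 at 24 h.

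Rxrb, the RXR beta gene, showed the clearest pattern of the 6. Without T3, its level in C17.2a was 23.5 RPM at 6 h, 20.6 at 12 h and 67.2 at 24 h, and in C17.2b it was 24.7, 27.6 and 85.7. With T3 it was 26, 29.9 and 83.7 RPM in C17.2a, and 38.4, 42.4 and 123.5 in C17.2b. The 4 libraries of 24 h all lay above the 8 earlier ones, and within each line and time the T3 library was the higher.

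In untreated cells Rxrb rose between 6 and 24 h by 1.61 on the log2(RPM + 1) scale (SE 0.16, 3.06-fold, adjusted p = 5.82e-05 in limma, n = 6 libraries). The ratio of the 24 h to the 6 h library was 2.86 (95% counting interval 2.49 to 3.28) in untreated C17.2a and 3.47 (3.08 to 3.92) in untreated C17.2b. With T3 it was 3.22 in both lines. Between 6 and 12 h the ratio was 0.877 to 1.15 in the 4 series, so the increase fell between 12 and 24 h.

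This change has to be read against a broad shift in RPM between the times. Time also went along with depth in untreated cells. C17.2a had 1.29e+07 implied tags at 6 h and 9.81e+06 at 24 h, and C17.2b had 1.91e+07 and 7.37e+06. The part of depth in the change was not tested. Of 10192 genes tested 56.1% passed for 24 h against 6 h, 43% higher and 13.1% lower, and the median log2 change of all genes was 0.40. Relative to that median Rxrb rose by 1.22. With median-ratio scaling, which centres the typical gene, the rise was 1.15 (SE 0.15, adjusted p = 0.000582 in limma), while the calls over all genes became 2491 higher (24.4%) and 2682 lower (26.3%) in place of 4384 and 1336. Every 24 h library lay above every earlier one for 2 of the 6 genes, Rxra and Rxrb, as it did for 26.5% of all genes. A change of 1.61 or more was seen in 7.14% of genes.

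Rxrb was also the 1 member of the 6 that passed the threshold for T3, where 6.45% of 10577 genes did (4.09% higher, 2.35% lower). The shared rise was 0.45 (SE 0.10, 1.37-fold, adjusted p = 0.0301 in limma, higher in 6 of 6 pairs). The ratio of T3 to untreated was 1.11 (0.936 to 1.31), 1.45 (1.23 to 1.71) and 1.25 (1.12 to 1.39) at 6, 12 and 24 h in C17.2a. In C17.2b it was 1.55 (1.35 to 1.79), 1.54 (1.33 to 1.78) and 1.44 (1.3 to 1.6). The counting interval thus lay above 1 in 5 of the 6 pairs, all but C17.2a 6 h.

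The call of Rxrb was sensitive to the small number of pairs. It was lost without the C17.2a 12 h pair (adjusted p = 0.113 in limma) or without the C17.2b 6 h, 12 h or 24 h pair (0.11, 0.129 and 0.104), and without a pair block (adjusted p = 1), where the time effect enters the spread. Over the 12 alternatives the log2 value stayed between 0.41 and 0.51. Without the C17.2a 24 h pair it was 0.48 (adjusted p = 0.00533).

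By line, the T3 response of Rxrb was 0.32 (SE 0.14, adjusted p = 0.293) in C17.2a and 0.58 (SE 0.14, adjusted p = 0.0679) in C17.2b. Once the pair of C17.2a at 24 h was left out of the fit, the C17.2b value passed (adjusted p = 0.00785, where 11.3% of genes did), as it did with the C17.2b libraries alone (0.00764, where 10.7% did). Its adjusted p ran from 0.00764 to 1 over the 13 alternatives. No member passed in either line in the full fit, where 1.37% of genes did in C17.2a and 3.11% in C17.2b. At an unadjusted p under 0.05 in limma there were 2 members in C17.2a (Rxrb and Tbl1xr1), where 16.5% of all genes had one, and 1 in C17.2b (Rxrb), where 13% did. The difference between lines was 0.26 (95% interval -0.19 to 0.70, adjusted p = 0.722), which did not pass. No gene passed for that difference in limma (0%), while 583 genes (5.51%) and 0 members had an unadjusted p under 0.05.

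Rxrb was higher in C17.2b than in C17.2a at all 3 times, both without T3 (ratios 1.05, 1.34 and 1.28) and with T3 (1.48, 1.42 and 1.47). Among all genes 16.6% were higher in C17.2b at all 3 times without T3, and 23.8% with it. In untreated cells the difference was 0.27 (SE 0.13, adjusted p = 0.265 in limma) and did not pass. A fit of all 12 libraries, with treatment and time as blocks, took untreated and T3 libraries together. Its line difference is thus not that of untreated cells alone. It was 0.40 and passed, as 10.6% of genes did (adjusted p = 0.0192 in limma, range over the 9 alternatives 0.0192 to 0.577).

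Rxra, the RXR alpha gene, moved less. Without T3 it stood at 48.1, 36 and 72.7 RPM at 6, 12 and 24 h in C17.2a, and at 45.2, 44.2 and 64.3 in C17.2b. With T3 the values were 46.8, 44.6 and 87 in C17.2a, and 52, 49.5 and 65 in C17.2b. The 24 h libraries were again the 4 highest, while T3 and untreated libraries overlapped.

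From 6 to 24 h without T3 Rxra rose by 0.54 (SE 0.17, adjusted p = 0.0184 in limma), close to the median of all genes at 0.40. With median-ratio scaling the value was 0.08 (adjusted p = 0.691), so the call depends on the scaling. The shared T3 value was 0.15 (SE 0.09, 95% interval -0.06 to 0.35, adjusted p = 0.448 in limma), higher in 5 of 6 pairs, and did not pass.

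The ratio of Rxrb to Rxra tags within a library is free of library scaling. It ran from 0.489 to 0.857 in the 8 libraries of 6 and 12 h and from 0.924 to 1.9 in the 4 libraries of 24 h. In untreated cells it went from 0.489 at 6 h to 0.924 at 24 h in C17.2a, and from 0.547 to 1.33 in C17.2b. The C17.2b T3 24 h library had the highest value and untreated C17.2a at 6 h the lowest. The ratio tracks the balance of the pair across libraries, and its absolute size does not say which transcript was more abundant. Rxrg, the third RXR gene, was listed in 2 libraries, at 0.09 and 0.18 RPM, and was not tested.

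**Figure D2:**
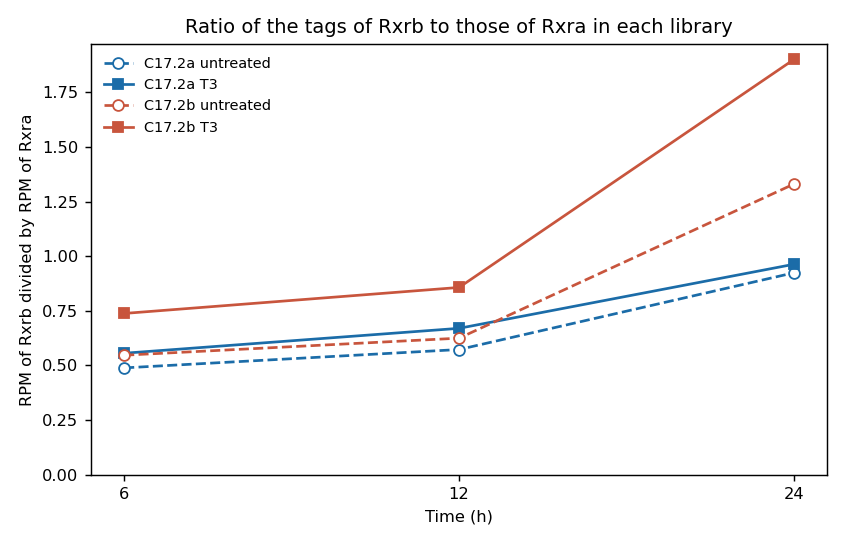
Ratio of the RPM of Rxrb to the RPM of Rxra (y axis, from 0) at 6, 12 and 24 h (x axis, evenly spaced), 1 point per library. All 4 values at 24 h (0.924 to 1.9) lie above the 8 earlier values (0.489 to 0.857), with C17.2b T3 the highest at each time.

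Thra, the alpha receptor gene, was low throughout, and 1 library set its T3 response. Without T3 it was at 3.4, 2.04 and 5 RPM at 6, 12 and 24 h in C17.2a, and at 3.3, 2.24 and 5.83 in C17.2b. With T3 it was at 2.68, 2.41 and 0.12 RPM in C17.2a, and at 2.34, 2.39 and 4.63 in C17.2b. Apart from the C17.2a T3 24 h library, the levels at 24 h were the highest at 4.63 to 5.83 RPM, and T3 and untreated values overlapped.

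The 0.12 RPM rests on 1 implied tag against 49 in the untreated partner, a ratio of 0.024 (95% counting interval 0.000592 to 0.139). In the other 5 pairs the ratio was 0.709 to 1.18, and each interval included 1. The shared T3 value was -0.52 (SE 0.31, adjusted p = 0.451 in limma) with all 6 pairs and -0.13 (SE 0.13, adjusted p = 0.564) without the C17.2a 24 h pair. The difference between lines was 0.65 (95% interval -0.77 to 2.06, adjusted p = 0.749) and turned to -0.15 without that pair.

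Thra overlaps Nr1d1, a clock repressor gene on the other strand, at its 3' end. As no strand rule is given, tags from the overlap cannot be assigned to either gene with certainty. Nr1d1 was likewise low in the C17.2a T3 24 h library, with 1.91 RPM against 8.17 in its untreated partner. In C17.2b the genes went apart at 24 h: Nr1d1 was at 1.49 RPM untreated and 8.27 with T3, whereas Thra was at 5.83 and 4.63. The part of the overlap, and of the library that stands apart, in the Thra value was not tested.

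In untreated cells Thra at 24 h minus 6 h was 0.56 (SE 0.23, adjusted p = 0.0647 in limma), and 0.17 with median-ratio scaling (adjusted p = 0.527). A pseudocount of 5 gave 0.32 (adjusted p = 0.0448, where 55.8% of genes passed), and the adjusted p lay between 0.0448 and 0.945 over the 5 alternatives. The call thus depended on the processing.

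Thrb, the beta receptor gene, was low in every library, with 8 to 37 implied tags. Its level in untreated C17.2a was 1.55, 0.98 and 1.33 RPM at 6, 12 and 24 h, and in untreated C17.2b 1.94, 0.72 and 1.22. T3 libraries held 2.19, 1.77 and 1.79 RPM in C17.2a, and 1.7, 1.86 and 1.4 in C17.2b. T3 was higher in 5 of 6 pairs, C17.2b 6 h being the exception, and the groups overlapped.

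The counting interval of the T3 ratio lay above 1 in 1 pair, C17.2b 12 h, at 2.58 (1.1 to 6.75). The shared value was 0.30 (SE 0.15, 95% interval -0.03 to 0.63, adjusted p = 0.335 in limma) and did not pass. It kept its sign in all 11 alternatives, 0.11 to 0.38, but in C17.2b the value of 0.24 became -0.01 without the 12 h pair. Time without T3 gave -0.27 (SE 0.25, adjusted p = 0.38).

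Neither receptor gene differed past the threshold between the lines. Untreated C17.2b minus untreated C17.2a was 0.08 (95% interval -0.34 to 0.51) for Thra and -0.02 (-0.47 to 0.43) for Thrb. Neither passed in limma. No member passed for the lines in untreated cells, where 8.85% of genes did, and 0 of the 6 had an unadjusted p under 0.05, against 22.8% of all genes. Whether the tags count the introduced copy is not given in the sources used here, so these levels do not check the labels.

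Ncor1, the large scaffold of the corepressor complex, was higher in RPM in every T3 library than in every untreated one. The untreated levels at 6, 12 and 24 h were 61.4, 59.5 and 51.2 RPM in C17.2a, and 63.1, 49.8 and 56.2 in C17.2b. The T3 levels were 66.9, 66.5 and 73.8 RPM in C17.2a, and 74.8, 66.2 and 66 in C17.2b. The gap between groups was narrow, from 63.1 RPM, the highest untreated value, to 66 RPM, the lowest with T3.

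Tbl1xr1, the exchange factor gene, showed the same separation. Untreated libraries were at 28.5, 33.9 and 28 RPM in C17.2a, and at 34.4, 29.9 and 33 in C17.2b. T3 libraries were at 35.7, 40.1 and 43.1 RPM in C17.2a, and at 46.4, 40 and 34.6 in C17.2b. The closest values were 34.4 RPM untreated (C17.2b 6 h) and 34.6 RPM with T3 (C17.2b 24 h).

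Every T3 library lay above every untreated library for 2 of the 6 members, Ncor1 and Tbl1xr1, as it did for 1.47% of all genes tested. That separation is in RPM and was not examined with median-ratio scaling. Its closest values came from untreated C17.2b at 6 h and from C17.2b with T3 at 24 h. The median RPM of all symbols was 9.14 and 14.7 in these libraries, so the separation may depend on the scaling. T3 was above untreated in all 6 pairs for 3 members, Rxrb, Ncor1 and Tbl1xr1, as for 8.06% of all genes. The size was small. The shared log2 value was 0.28 (SE 0.09, 1.21-fold, adjusted p = 0.131 in limma) for Ncor1 and 0.34 (SE 0.10, 1.27-fold, adjusted p = 0.0947) for Tbl1xr1, and neither passed. Ratios over the pairs were 1.09 to 1.44 for Ncor1 and 1.05 to 1.54 for Tbl1xr1, with a counting interval above 1 in 5 of 6 pairs for each.

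For both genes the largest ratio came from the C17.2a 24 h pair, 1.44 for Ncor1 and 1.54 for Tbl1xr1. Without this pair Ncor1 was 0.23 (adjusted p = 0.0731) and Tbl1xr1 0.29 (adjusted p = 0.0466), which passed there, where 15% of genes did and 9.14% were higher. Over the alternatives the adjusted p ran from 0.0731 to 0.487 for Ncor1 and from 0.0466 to 0.373 for Tbl1xr1. Ncor1 overlaps Ttc19 at its 3' end and Pigl at its 5' end, both on the other strand. The shared T3 values of these neighbours were -0.07 (SE 0.10) for Ttc19 and 0.15 (SE 0.18) for Pigl.

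Time moved the corepressor genes little on the deposited scale. From 6 to 24 h without T3 the change was -0.21 (SE 0.16, adjusted p = 0.28 in limma) for Ncor1 and -0.04 (SE 0.18, adjusted p = 0.854) for Tbl1xr1. Relative to the median of all genes these are -0.61 and -0.44. With median-ratio scaling Ncor1 was lower by that test (-0.67, adjusted p = 0.0101), and Tbl1xr1 at -0.50 did not pass (adjusted p = 0.0525). The lines did not differ past the threshold in untreated cells: C17.2b minus C17.2a was -0.03 (95% interval -0.32 to 0.26) for Ncor1 and 0.11 (-0.21 to 0.43) for Tbl1xr1.

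**Figure D3:**
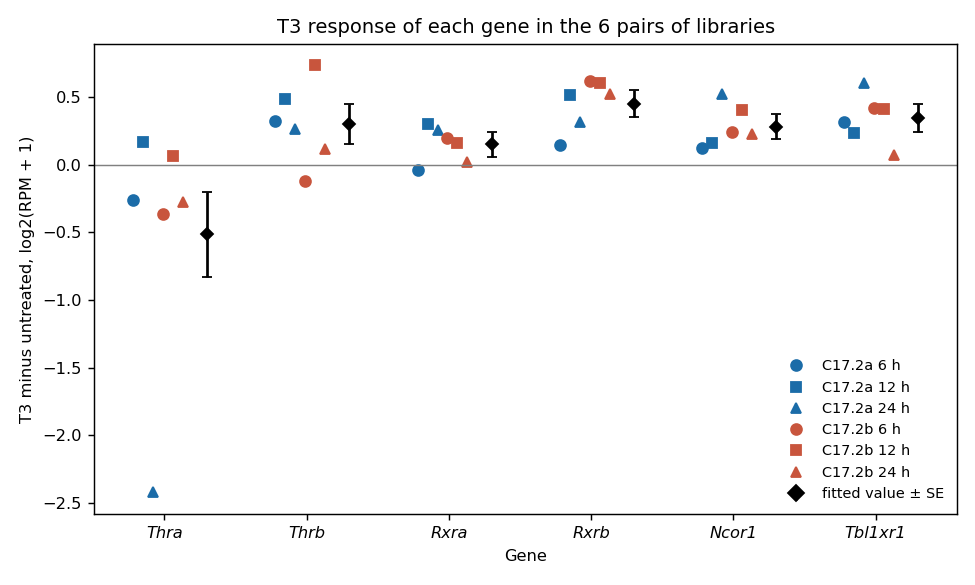
Difference between the T3 and the untreated library on the log2(RPM + 1) scale (y axis) for each gene (x axis), 1 point per pair with colour for line and shape for time; black diamonds are the fitted shared values with their SE. Rxrb, Ncor1 and Tbl1xr1 have all 6 points above 0, and the C17.2a 24 h pair of Thra lies at -2.42.

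The other described genes of the corepressor complex gave no call under T3. Tbl1x, a relative of Tbl1xr1, was at -0.08 (SE 0.18), Hdac3, the deacetylase gene, at -0.05 (SE 0.17) and Gps2 at -0.18 (SE 0.34). With Ncor1 and Tbl1xr1 these are 5 genes, of which 0 rose and 0 fell in limma, where 6.45% of all genes passed. Of the 5, 2 (Ncor1 and Tbl1xr1) had an unadjusted p under 0.05, as 18.1% of all genes did. The median of the 5 was -0.05 against -0.01 for all genes. The values of Tbl1x, Hdac3 and Gps2 changed sign without the C17.2a 24 h pair, to 0.07 (SE 0.13), 0.12 (SE 0.10) and 0.23 (SE 0.14). Without that pair 1 of the 5 passed, Tbl1xr1, where 15% of all genes did, and the median was 0.23 against 0.03 for all genes.

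Coactivators, which replace the complex when hormone binds, gave no call. Of 13 genes listed 12 were tested, and 0 rose and 0 fell in limma, where 6.45% of all genes passed. Of the 12, 1 (Med1, the Mediator subunit that contacts nuclear receptors) had an unadjusted p under 0.05, as 18.1% of all genes did. The median of the 12 was 0.11. Without the C17.2a 24 h pair the counts were again 0 and 0, where 15% of all genes passed. The values of Ncoa1, Ncoa2 and Ncoa3, the p160 family, were -0.04 (SE 0.10), -0.04 (SE 0.14) and 0.21 (SE 0.14), and without the C17.2a 24 h pair they were -0.06, -0.16 and 0.20.

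Other receptors that pair with RXR moved in both directions. Of 14 listed 8 were tested, and 1 rose and 1 fell, where 4.09% of all genes were higher and 2.35% lower. The median of the 8 was 0.12. Nr4a2 (Nurr1, an early response factor) fell by 1.11 (SE 0.13, adjusted p = 0.0016 in limma), lower in 6 of 6 pairs. Its call was lost in 1 of 12 alternatives, without a pair block (adjusted p = 0.111, range 0.000171 to 0.111). Nr1h4, the bile acid receptor gene, rose by 1.22 (SE 0.28, adjusted p = 0.033), higher in 5 of 6 pairs.

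The call of Nr1h4 was lost without any pair other than C17.2a 24 h (adjusted p = 0.0773 to 0.128), without a filter (0.0542) and without a pair block (0.0549). Without the C17.2a 24 h pair, 4 of the 8 rose and 1 fell, where 15% of all genes passed and 9.14% were higher. The additional genes were Rara, a retinoic acid receptor (1.36, adjusted p = 1.99e-05), Vdr, the vitamin D receptor (1.01, adjusted p = 0.0395), and Ppard, a fatty acid receptor (0.58, adjusted p = 0.00861). In the full fit their values were 0.89 (SE 0.37), 0.83 (SE 0.32) and 0.12 (SE 0.37). For Vdr, the values by line without the C17.2a 24 h pair were 0.24 (SE 0.35) in C17.2a and 1.53 (SE 0.29) in C17.2b. The difference between these values did not pass (adjusted p = 0.658 in limma).

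Among other corepressors of nuclear receptors Hr rose by 3.55 (SE 0.12, adjusted p = 1.69e-06) and Nrip1 was at -0.20 (SE 0.19), or -0.11 (SE 0.18) without the C17.2a 24 h pair. Of 9 genes for entry and metabolism of the hormone, 3 were tested and 0 passed for T3 in limma, where 6.45% of all genes did. Of the 3, 1 (Slc16a10) had an unadjusted p under 0.05, as 18.1% of all genes did. These 3 all rose from 6 to 24 h without T3, where 43% of all genes were higher and the median change was 0.40. Slc3a2 and Slc7a5, the chains of a shared amino acid and hormone transporter, rose by 2.05 (SE 0.16) and 1.93 (SE 0.15), each with an adjusted p of 2.34e-05 in limma. Slc16a10, a transporter of aromatic amino acids and T3, rose by 0.90 (SE 0.21, adjusted p = 0.00491). With median-ratio scaling both chains passed at 1.58 and 1.46, and Slc16a10 did not (0.46, adjusted p = 0.0892). With that scaling 24.4% of all genes were higher.

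With time the counts were 2 of 4 higher for receptors and RXRs (Rxra and Rxrb), 1 of 5 for the corepressor complex (Gps2), and 3 higher with 2 lower of 11 for coactivators, where 43% of all genes were higher and 13.1% lower. With median-ratio scaling they became 1 higher for receptors and RXRs, 1 higher and 1 lower (Ncor1) for the complex, and 2 higher and 3 lower for coactivators. The share of all genes called was then 50.7%.

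**Figure D4:**
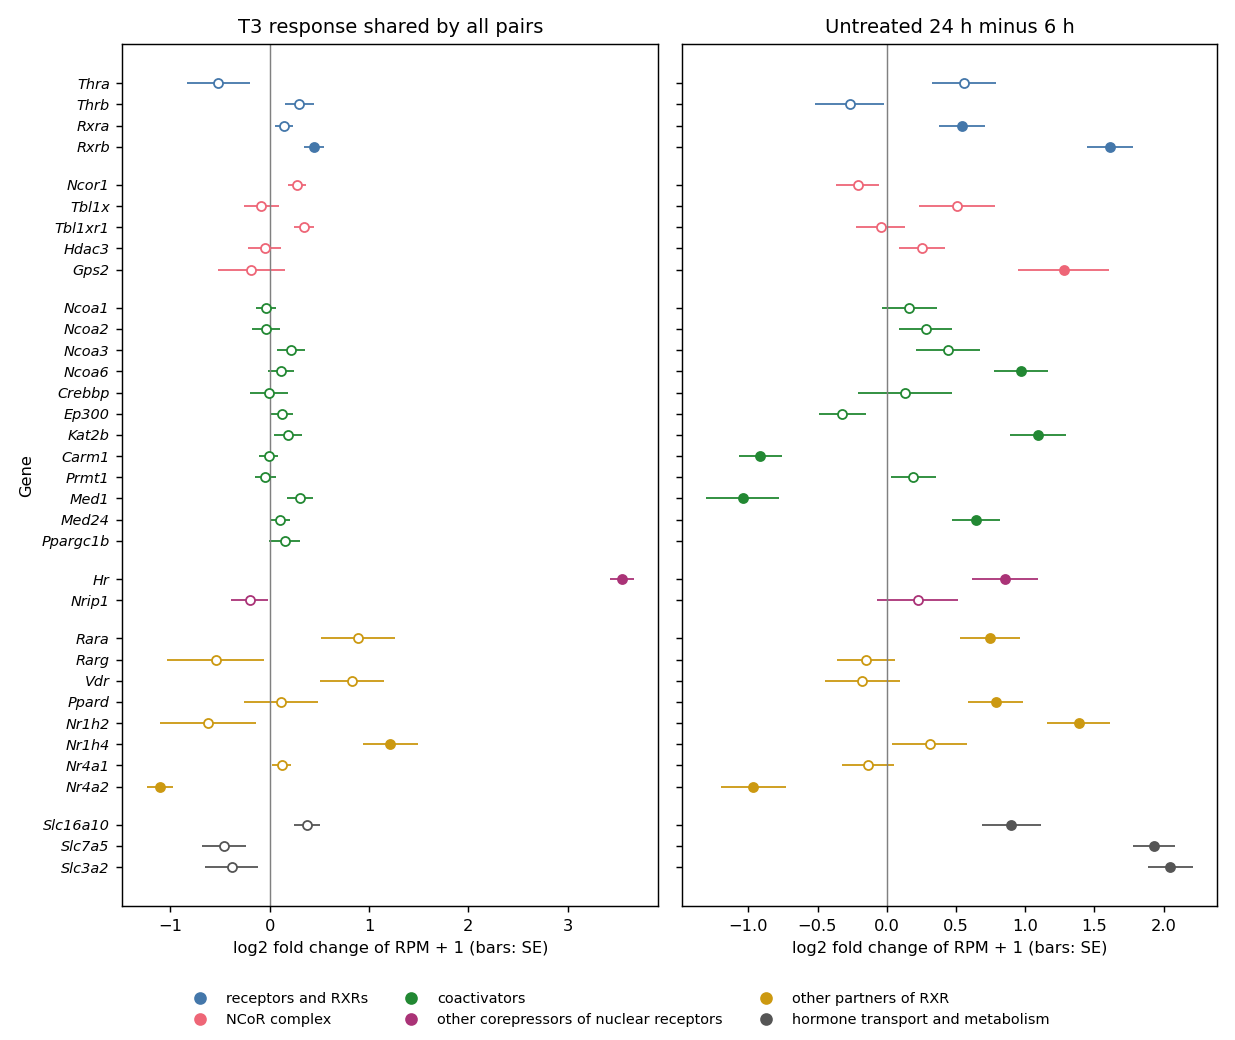
Log2 fold change with SE (x axis) of each tested list gene (y axis), for the shared T3 response at left and for untreated 24 h minus 6 h at right, filled where the adjusted p in limma was under 0.05. Under T3 the filled points are Rxrb, Hr, Nr1h4 and Nr4a2, while with time Rxrb (1.61), Slc7a5 (1.93) and Slc3a2 (2.05) lie farthest to the right.

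The 6 genes did not form 1 pattern. Likeness was measured as the mean absolute difference of log2(RPM + 1) over the 12 libraries after centring each gene, so 0 means identical profiles. Ncor1 and Tbl1xr1 differed by 0.0895, and each was the second nearest of 10576 genes to the other, against a median distance of 0.399 for Ncor1 and 0.423 for Tbl1xr1. Without the C17.2a T3 24 h library Tbl1xr1 was the 14th nearest to Ncor1, and Ncor1 again the second nearest to Tbl1xr1. Thrb lay 0.146 from Ncor1, where its median was 0.431. As Thrb stood at 0.72 to 2.19 RPM, where this scale understates differences, that distance does not show a shared pattern. Rxrb lay 0.445 to 0.739 from the other 5 members.

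Outside the group the nearest gene to Rxrb was Ppp1r13b, which encodes a p53-binding protein, at 0.105, followed by the chloride channel relative Clic5 at 0.121. Nearest to Tbl1xr1 was the cohesin regulator Pds5b (0.069) and to Ncor1 the elongin gene Tceb3 (0.0784). Rxra was nearest to Tmf1 (0.0748) and to Sdha, a subunit of succinate dehydrogenase (0.0759). Thrb was nearest to Pop5 (0.108) and Bzw1 (0.117), and Thra to Phkg2 (0.156) and Snx11 (0.162). All libraries share lines and times, so these distances describe profiles only. Without the C17.2a T3 24 h library Ppp1r13b and Pds5b again came first, whereas Phkg2 was the 20th nearest to Thra, Tmf1 and Sdha the 10th and 13th nearest to Rxra, and Tceb3 the fifth nearest to Ncor1.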

How the data were processed

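Digital gene expression libraries were made from polyA RNA, 12 in all. The authors deposited 1 table of 12774 gene symbols in RPM, in which every column has nearly the same sum, and the unit was inferred from those sums; values listed as N/A were read as 0. The submitters' processing notes name the build mm9. The aligner, the strand rule and how tags were matched to genes are not given in the sources used here. Low values lay on steps, and the size of a step gave the implied depth, 7.14e+06 to 1.91e+07 tags per library. Only 89.6% to 93.3% of low values were whole multiples of the step (tolerance 0.0055 RPM), so no count test was run. Counting intervals are exact at 95%, use tags rounded to whole numbers, and cover counting error only.

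Tests used limma 3.58.1 in R 4.3.3 (lmFit, eBayes with a trend) on log2(RPM + 1). Benjamini-Hochberg adjustment covered every gene that reached 1 RPM in 3 or more of the libraries fitted, with a threshold of 0.05. This scale understates the fold change of genes at low RPM. No group had a second library, so the 6 pairs of T3 and untreated libraries stood in for replicates, and the pair entered as a block. Untreated libraries were compared between lines with time as a block, and between 24 h and 6 h with line as a block. Separate cultures are not named in the labels, and p-values measure the spread between these libraries. Alternatives were pseudocounts of 0.5 and 5, no filter, a filter at 5 RPM, median-ratio scaling, no pair block, each line alone, all 12 libraries, and leaving out each pair or time. The code was tested on simulated data. The members and the gene lists were chosen with earlier results of these data known. By rule, genes named beyond the 6 members were list genes past the threshold in the shared T3 response, the 2 genes nearest each member in pattern, genes annotated on top of a member, and Hr. All other genes named, among them further list genes and cell type markers, fall outside that rule and were chosen after their values were seen. Some genes that these rules pick are left out here, and the counts of their lists are given without them.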

Additional observations from a re-analysis of the deposited data

Results flagged for a closer look

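Among the 6 pair differences of each of the 6 genes, 1 value stood far from the others. The T3 minus untreated difference of Thra in the C17.2a 24 h pair was -2.42 on the log2(RPM + 1) scale, and the next lowest was -0.36. The gap was 0.795 of the whole range, above Dixon's 95% critical value of 0.625 for 6 values. Chance marks about 1 in 20 such groups. The pair holds the library that stands apart, and the part of that library in the value was not tested.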

How the results depend on the processing

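For the 6 members, 347 values kept their direction and their side of the threshold over the alternatives, 6 lost a call, 6 gained one and 17 changed sign. Most of the 347 belong to results that did not pass in the main fit. The call of Rxrb for T3 was lost in 5 of 12 alternatives. The calls for time were lost in 1 of 6 for Rxra and 0 of 6 for Rxrb. The number of genes past 0.05 for T3 depended on the pairs. For the shared response (682) it was 240 with no pair block, 1554 without the C17.2a 24 h pair, 379 without C17.2a 12 h, and 404, 319 and 419 without the C17.2b 6, 12 and 24 h pairs. For C17.2a (145) it was 28 with no pair block, 12 from that line alone, 32, 35 and 462 without its own 6, 12 and 24 h pairs, and 73, 49 and 70 without those of C17.2b. For C17.2b (329) it was 86 with no pair block, 1086 from that line alone, 1178 without C17.2a 24 h, and 119, 39 and 56 without its own pairs. For the difference between lines (0) it was 2 without C17.2a 24 h. For the untreated lines (902) it was 404 without the 6 h libraries, and the calls of 299 higher and 603 lower became 353 and 460 with median-ratio scaling.

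The sign changes were of values that did not pass. In C17.2b the T3 value of Thrb was -0.0052 without the 12 h pair. For the difference of the T3 response between lines, Ncor1 was -0.11 with median-ratio scaling and -0.045, -0.028 and -0.029 without C17.2a 6 h, C17.2a 12 h and C17.2b 12 h. Rxra was 0.016 without C17.2a 12 h and 0.0063 without C17.2b 24 h, and Tbl1xr1 0.023 without C17.2a 24 h and 0.029 without C17.2b 24 h. Thra was -0.15 without C17.2a 24 h and Thrb 0.067 without C17.2b 6 h. For the untreated lines, Thrb was 0.023 and Ncor1 0.049 with median-ratio scaling, and 0.068 and 0.084 without the 12 h libraries. Rxra was -0.13 without the 12 h libraries and -0.015 with all 12 libraries, a fit that takes untreated and T3 libraries together. The cause of these changes was not tested. Thra and Thrb could not be tested with the filter at 5 RPM. Thrb rests on 8 to 37 tags per library, so small changes were not detectable at this depth.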
